A study of Mus musculus with 2 samples.

Results

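Among cultured white and brown adipose progenitors, 137 cells carried transcripts of the hematopoietic surface and signalling genes Ptprc, Tyrobp, Fcer1g and Csf1r, and these myeloid cells were compared with all other cells of the same culture. A cell was counted as myeloid if it had at least 1000 detected genes and at least 5 unique molecular identifiers (UMIs, each standing for 1 captured transcript) summed over the 4 genes, with at least 2 of the 4 found. They were 137 of the 11996 cells with at least 1000 genes, out of 12270 cells captured in all. The cells were selected on the measured counts of these 4 genes, so their levels describe the choice and are no finding. Because the remaining genes were counted in the same chosen cells, myeloid and other cells are described side by side with no test.

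The study cultured progenitors from the subcutaneous white (WAT) and interscapular brown (BAT) depots of newborn C57/BL6J mice of both sexes, without any engineered allele or drug. The labels give the age as P0, whereas the study's methods give P1. Tissue of 4 pups was pooled. Both tissues were digested with collagenase, for 35 minutes (WAT) or 50 minutes (BAT), and the cells were left to attach to plastic, washed to remove blood cells and debris, grown to confluency and lifted with trypsin, so what is described here is the myeloid cells that attached and were released again. Single cells were sequenced as 1 10x Genomics 3′ library per depot, so no value has a replicate, no p-value was computed, and depot, digestion time, pool, culture and library cannot be told apart.

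Macrophages are tissue phagocytes that engulf dying cells and debris, degrade them in lysosomes and return the lipid and iron. In adipose tissue they lie among the adipocyte precursors, which make the growth factor CSF1 that keeps macrophages alive through its receptor on their surface. Resident macrophages of many organs are seeded before birth and persist by division, whereas blood monocytes and dendritic cells are replaced from the bone marrow and carry other markers.

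The WAT library held 5261 cells with 144451047 UMIs, and the BAT library 7009 cells with 205551320 UMIs. In WAT, 39 of 5103 cells with at least 1000 genes were myeloid (0.764%, exact 95% Clopper-Pearson interval 0.544 to 1.04%). In BAT, 98 of 6893 were (1.42%, 1.16 to 1.73%). The share was therefore 1.86-fold higher in the BAT library (conditional binomial interval 1.27 to 2.77), and all intervals given here cover counting error only. With the limits on genes, UMIs and mitochondrial share that the study's methods state, 31 of 4407 WAT cells (0.703%, 0.478 to 0.997%) and 79 of 6137 BAT cells (1.29%, 1.02 to 1.60%) remained myeloid, so that 8 and 19 members lay outside those limits. Depth was alike, at 30076 UMIs for the median WAT myeloid cell (2482 to 66623) and 28145.5 for the median BAT one (2865 to 67667), against 26598 and 26600 in the other cells. The 2 libraries shared 9 cell barcodes, none of which belonged to a myeloid cell.

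The rule cut a nearly empty part of the distribution. Summed over the 4 genes, the median myeloid cell held 110 UMIs in the WAT culture and 102 in the BAT culture, while 89.5% of the other WAT cells and 87.5% of the other BAT cells had 0. Just inside the limit were WAT members with 5, 8, 15 and 16 UMIs and BAT members with 5, 6, 8 and 23 UMIs, and the remaining 35 and 94 members had 30 or more. Just outside it, 3 other WAT cells and 9 other BAT cells had 4 UMIs, and 1 other WAT cell had 5 UMIs of a single gene. All 4 genes were found in 36 of 39 and 92 of 98 members.

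**Figure D1:**
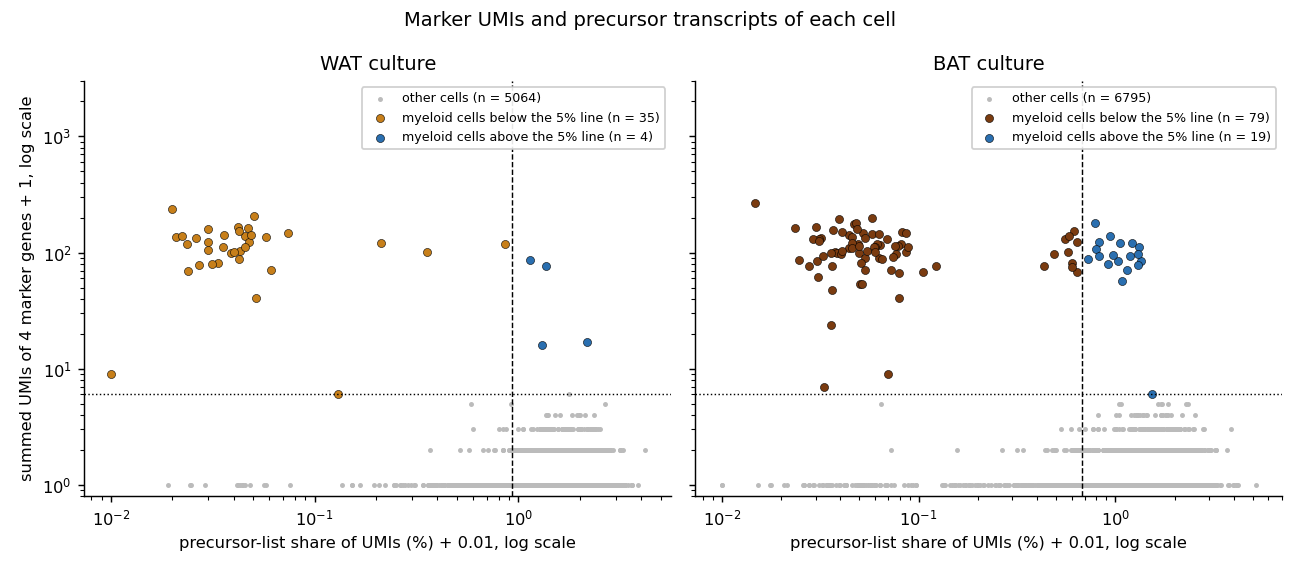
Each point is 1 cell of the WAT (left) or BAT (right) culture. The x axis gives the percent of its UMIs from 12 adipocyte precursor genes plus 0.01, the y axis its UMIs summed over the 4 genes of the rule plus 1, both on log scales; the dotted line marks 5 UMIs and the dashed line the 5th percentile of precursor share in other cells (0.920% in WAT, 0.671% in BAT). Most myeloid cells lie at the upper left, and 4 WAT and 19 BAT members lie to the right of the dashed line.

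The label was checked on 16 macrophage identity genes, of which Csf1r alone also belongs to the rule. Their summed level was 14422 CPM (counts per 1000000 UMIs, summed over the cells of a profile) in WAT and 11751 CPM in BAT myeloid cells, against 36.4 and 42.4 CPM in the other cells, and no gene of the list reached 50 CPM in the other cells. Counts of genes given below take those with at least 50 CPM in either profile. A gene that is scarce in the other cells could thus enter a count only by being high in the myeloid cells, so the counts describe the lists and are no support for a difference. Across all genes at that level, 19.4% of 4642 were over 2-fold higher and 18.0% over 2-fold lower in WAT myeloid cells, and 15.1% of 4297 higher and 14.5% lower in BAT. The median log2 ratio over all genes was 0.01 in WAT and -0.01 in BAT. Per cell the summed level of the identity list ran from 1808 to 28166 CPM with a median of 14803 in WAT, and from 309 to 28781 CPM with a median of 13278.5 in BAT.

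Lyz2, which encodes the antibacterial enzyme lysozyme, was at 6754 CPM (exact Poisson interval 6604 to 6906) in WAT and 4778 CPM (4700 to 4858) in BAT myeloid cells. Every one of the 137 cells had it, from 968.5 to 17186.5 CPM with a median of 6109.8 in WAT and from 232 to 18599.8 CPM with a median of 4162.5 in BAT. Other cells had 2.91 and 4.70 CPM of Lyz2, with at least 1 UMI in 6.95% and 12.1% of them, which is the level at which an abundant myeloid transcript appeared in droplets of other cells. The 2 populations thus differed by log2 11.18 in WAT and 9.99 in BAT.

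The 3 chains of C1q, the recognition molecule of the classical complement pathway, are made by tissue macrophages. C1qa (chr4:136895917-136898803, minus strand, GRCm38) was at 1444 CPM in WAT and 1279 CPM in BAT myeloid cells, against 0.175 and 0.306 CPM in the other cells, and was found in 37 of 39 and 96 of 98 members. C1qb (chr4:136880129-136886187) was at 1599.5 and 1571 CPM, and C1qc (chr4:136889804-136893065), lying between them, at 1069.8 and 998.5 CPM. Per cell, C1qa ran from 0 to 3384 CPM with a median of 1562 in WAT and from 0 to 4409 CPM with a median of 1497 in BAT, so the 2 cultures overlapped over nearly the whole range.

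The 12 genes with the largest log2 ratio of myeloid over other cells, taken in the library where it was smaller and with 1 CPM added to each level, were C1qb, C1qa, Tyrobp, Lyz2, Fcer1g, C1qc, Ms4a7, Ctss, Trem2, Pf4, C3ar1 and Clec4d, of which Tyrobp and Fcer1g belong to the rule. Ms4a7, a membrane-spanning protein of macrophages, was at 641 and 639 CPM, against 0.0768 and 0.193 CPM in the other cells. Pf4, the chemokine CXCL4, was at 557 and 538 CPM, and C3ar1, the receptor of complement fragment C3a, at 461.5 and 418 CPM. Clec4d, a lectin receptor for mycobacterial glycolipid, was at 482 and 406 CPM. Spi1, the gene of PU.1, the transcription factor that directs myeloid fate, was at 315 and 274 CPM, against 0.0768 and 0.0790 CPM in the other cells, and it was found in 38 of 39 and 96 of 98 members.

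PU.1 binds purine-rich DNA with a GAGGAAGT core. RefSeq windows of GRCm38.p6 from 250 bases before to 50 bases after the start were read for these 12 genes, of which 10 had a window (11 windows in all), and the 8 letters GAGGAAGT were searched on both strands. Windows of 3 genes held a match, all on the opposite strand as ACTTCCTC, beside 1052 of all 32851 windows (3.20%). These windows are shown, with the match in capitals, because they are the ones of the leading genes that held it. A match is a string of letters and not a measured binding site.
C1qc, chr4:136892865-136893164, minus strand: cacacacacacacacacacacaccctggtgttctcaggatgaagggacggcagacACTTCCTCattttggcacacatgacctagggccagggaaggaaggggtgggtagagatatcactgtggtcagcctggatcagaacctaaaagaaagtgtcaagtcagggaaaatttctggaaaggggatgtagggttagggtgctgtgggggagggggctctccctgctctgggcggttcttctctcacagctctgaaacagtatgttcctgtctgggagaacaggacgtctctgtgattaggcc
Ctss, chr3:95526536-95526835, plus strand: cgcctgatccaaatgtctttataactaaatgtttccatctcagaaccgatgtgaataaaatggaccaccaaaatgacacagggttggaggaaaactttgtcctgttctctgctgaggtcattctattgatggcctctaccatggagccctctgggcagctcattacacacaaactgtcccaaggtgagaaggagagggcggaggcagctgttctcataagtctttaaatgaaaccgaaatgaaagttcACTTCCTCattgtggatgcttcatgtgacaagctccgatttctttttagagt
Pf4, chr5:90772185-90772484, plus strand: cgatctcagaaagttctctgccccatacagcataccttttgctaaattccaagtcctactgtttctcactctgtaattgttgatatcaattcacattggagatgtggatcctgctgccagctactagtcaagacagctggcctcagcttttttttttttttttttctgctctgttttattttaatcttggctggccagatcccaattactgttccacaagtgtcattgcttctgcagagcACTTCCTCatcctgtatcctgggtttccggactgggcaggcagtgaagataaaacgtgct
The match starts 195 bases before the RefSeq start of the C1qc window, 2 bases before that of Ctss and 10 bases before that of Pf4. The RefSeq start used for C1qc lies inside the gene span given above, so the distance to the start of that span is smaller.

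**Figure D2:**
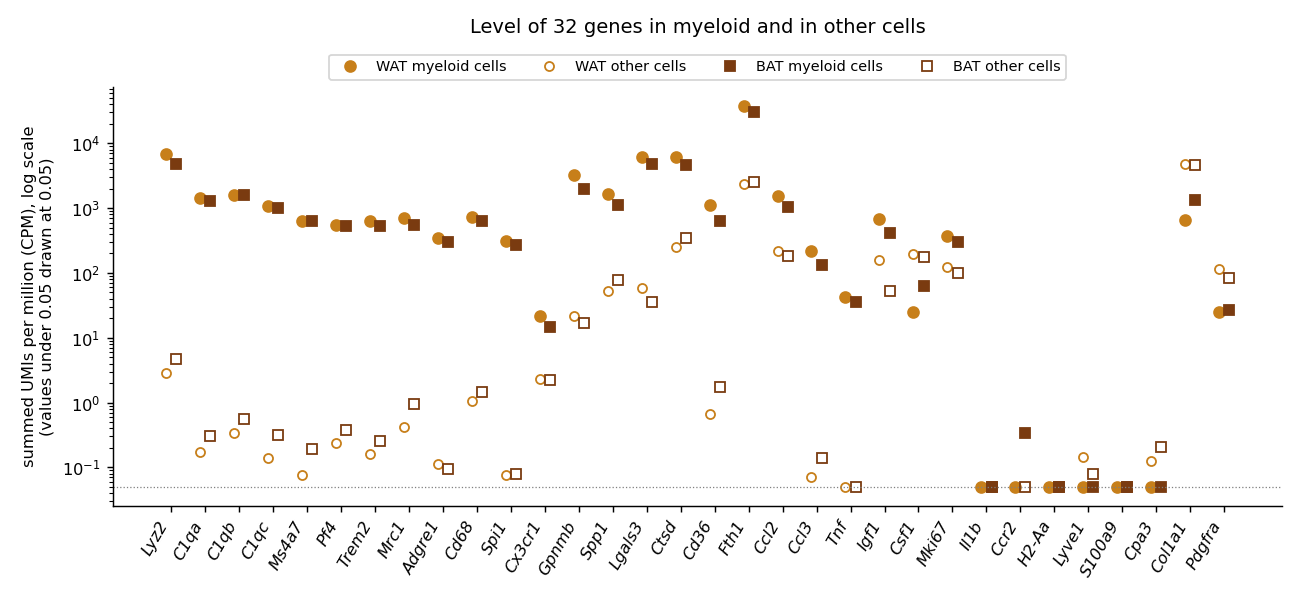
Summed level (CPM, log scale) of myeloid genes in WAT (circles) and BAT (squares), for myeloid cells (filled) and other cells (open); values under 0.05 are drawn at the dotted line. Macrophage genes such as C1qa (1444 and 1279 CPM against 0.175 and 0.306) separate the filled from the open symbols, whereas Il1b, Ccr2 and H2-Aa are at or near 0 in all 4 profiles.

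Defining markers of other blood lineages were at or near 0 in the myeloid cells, although some of their lists held another gene that was not. Of monocyte genes, Ly6c2 had 0 UMIs in both cultures, and Ccr2, the receptor by which monocytes leave the marrow, had 0 in WAT and was found in 1 BAT cell; 0 of 39 cells allows a share of up to 7.69% for cells with a UMI, which does not limit the share of cells expressing the gene. Chil3 was at 0 as well. The monocyte list summed to 104 and 136 CPM, of which Vcan made up 78.7 and 86.6 CPM, against 561 and 283 CPM in the other cells. The rest of that sum was mainly Plac8 (25.4 and 17.2 CPM) and, in BAT, Hp (31.7 CPM), and both of these were also higher in the other cells. In the 31 WAT and 68 BAT members with under 0.1% of their UMIs from adipocyte precursor genes, Vcan was at 3.35 and 5.54 CPM, Plac8 at 2.24 and 1.85 CPM and Hp at 0 and 1.85 CPM. Flt3, Xcr1, Clec9a and Cd209a of dendritic cells were at 0 in both, as were S100a9 and Ly6g of neutrophils, Cd3e, Cd3d and Gzma of lymphocytes, and Cpa3, Fcer1a and Ms4a2 of mast cells. The mast cell list nonetheless summed to 233 and 163 CPM, against 5.41 and 5.24 CPM in the other cells, because it contains Hpgds, the hematopoietic prostaglandin D synthase, which was at 230 CPM in WAT and 162 CPM in BAT and was found in 36 and 91 members. Globin genes of red cells were at 0 in all 137 cells.

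The neutrophil list summed to 11.4 and 16.9 CPM against 1.65 and 1.88 CPM in the other cells. It was led by Csf3r at 7.87 and 7.08 CPM. Mmp8 was found in both cultures, and S100a8, Ngp and Camp had 0 UMIs in WAT but not in BAT. The dendritic list summed to 9.61 and 6.40 CPM against 12.65 and 9.31 CPM. The erythroid list summed to 0 and 0.337 CPM against 0.7405 and 0.494 CPM. The lymphoid list summed to 125 and 55.3 CPM against 6.53 and 9.98 CPM, which was mostly Il7r, the interleukin-7 receptor, at 113 CPM in WAT and 46.5 CPM in BAT. The endothelial list summed to 28.8 and 24.9 CPM against 23.5 and 24.3 CPM, with Kdr at 20.1 and 15.8 CPM and Cldn5 at 0.

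A few cells went against the label. A BAT member with 6 rule UMIs among 25892 UMIs had 309 CPM of macrophage identity genes, the lowest of all, and 12050.1 CPM of myogenic genes such as Myog. A BAT member with 5 rule UMIs among 24727 had 849 CPM of the identity list and 1.53% of its UMIs from adipocyte precursor genes, and a WAT member with 16 among 30977 had 1808 CPM and 2.17%. Another WAT member, with 100 rule UMIs and 9421 CPM of identity genes, held all of the Sox10 and Cdh19 UMIs found in WAT myeloid cells, 1490.2 CPM of the glial list. Results for members with at least 30 rule UMIs, 35 in WAT and 94 in BAT, were computed separately and gave 930 and 658 genes over 2-fold higher than in the other cells, against 899 and 647 for all members.

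Transcripts of the adipocyte precursors, the main cell type of both cultures, were unevenly spread over the myeloid cells. A list of 12 precursor genes (matrix genes such as Col1a1, Col3a1 and Dcn, and the surface markers Pdgfra, Pdgfrb, Dlk1 and Thy1) took 0.240% of the UMIs of WAT myeloid cells (0.231 to 0.249%) and 0.421% of those of BAT (0.414 to 0.429%), against 1.66% and 1.50% in the other cells. Within the study's cell limits the shares were 0.233% and 0.220%. The median cell had only 0.0327% in WAT and 0.0520% in BAT. In WAT 31 cells were under 0.1%, 4 lay between that and the 5th percentile of the other cells, and 4 were at or above it (10.3%, 2.87 to 24.2%). In BAT these numbers were 68, 11 and 19 cells (19.4%, 12.1 to 28.6%), and no BAT cell lay between 0.113% and 0.426%. The 4 WAT cells of the middle range were at 0.121, 0.201, 0.346 and 0.850%.

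The BAT cells with more precursor transcripts also held more RNA. Their median depth was 23696.5 UMIs and 5249 genes under 0.1%, 41833 UMIs and 7428 genes in the middle range, and 49070 UMIs and 7755 genes at or above the 5th percentile, with medians of 109.5, 96 and 92 rule UMIs. Over these ranges Lyz2 was at 6437, 3095 and 2599.5 CPM and Col1a1, the main chain of type I collagen, at 135, 1828 and 3347 CPM. Col1a1 is on the precursor list that set the ranges, so its rise follows from the sorting and is no finding. Since pups of both sexes were pooled, Xist and Y-linked transcripts in 1 droplet were counted: both were present in 3 of 68 cells (4.41%), 2 of 11 (18.2%) and 7 of 19 (36.8%, 16.3 to 61.6%), against 3.89% of the other BAT cells. In WAT the same count was 2 of 31 (6.45%), 2 of 4 and 0 of 4, against 3.22%. No doublets were removed, and the part of 2 cells in 1 droplet or of engulfed or free RNA in these values was not tested.

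Of droplets with transcripts of a single sex, 24 of 32 WAT myeloid cells (75.0%, 56.6 to 88.5%) and 72 of 84 BAT myeloid cells (85.7%, 76.4 to 92.4%) had Xist. The other cells had 79.7% and 86.5%, inside those intervals, so the sex ratio of the myeloid cells was not separable from that of the progenitors at this depth.

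Genes of the resident macrophage type were present with gaps. Of 14 such genes, 7 reached 50 CPM in each culture, and the list summed to 3149 and 2702 CPM against 261 and 277 CPM in the other cells. Mrc1, the mannose receptor, was at 699 CPM in WAT and 555 CPM in BAT, in 35 and 95 members, against 0.426 and 0.958 CPM. Stab1, a scavenger receptor, was at 507 and 467 CPM, and Folr2, the folate receptor of resident macrophages, at 133 and 114 CPM. Lyve1 and Cd209f, which mark perivascular and serosal macrophages, had 0 UMIs in both. Cd163, the hemoglobin receptor, was found in 1 cell of each culture and Timd4, a phosphatidylserine receptor, in 0 and 5 cells. F13a1, a coagulation factor subunit, was at 49.0 CPM in 12 WAT cells and 17.5 CPM in 19 BAT cells.

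Of the CSF1 axis, the ligand gene was higher in the other cells. Csf1 was at 199.6 CPM and 177 CPM in the other cells and at 25.4 and 62.3 CPM in the myeloid cells of WAT and BAT; in members under 0.1% precursor transcripts it was at 4.47 and 6.15 CPM. Csf1r, one of the 4 genes of the rule, was at 201 and 193 CPM in the myeloid cells and at 3.07 and 3.26 CPM in the others. Il34, the second ligand of that receptor, was at 5.24 and 1.35 CPM in myeloid cells and 3.41 and 5.28 CPM in the others, and Csf2 and Csf3 had 0 UMIs in the myeloid cells. Csf2ra, the alpha chain of the GM-CSF receptor, was at 71.7 and 65.7 CPM against 11.9 and 11.2 CPM. Over the 10 genes of the axis, 3 reached 50 CPM in each culture, of which Csf1 was over 2-fold lower in myeloid cells and Csf2ra and the rule gene Csf1r higher.

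Of 13 myeloid transcription factors tested in WAT, 9 were over 2-fold higher and 1 lower, and of 12 in BAT 7 were higher and 1 lower. Maf, which holds macrophages in their mature state, was at 399 and 343 CPM against 56.5 and 54.2 CPM in the other cells. Irf8, needed for the mononuclear lineage, was at 99.6 and 73.5 CPM against 0.259 and 0.257 CPM. Mitf, which drives lysosomal genes and osteoclast formation, was at 161 and 105.5 CPM against 52.5 and 20.3 CPM. Runx1 was at 324 and 298 CPM against 267 and 310 CPM and Cebpb at 175 and 200.2 CPM against 189.9 and 157 CPM, so neither separated the populations. Klf4 was the lower gene, at 21.9 and 27.3 CPM against 79.2 and 65.6 CPM.

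Genes of innate sensing had higher summed levels in the myeloid cells. The complement list summed to 5381.5 and 4958.5 CPM against 27.1 and 21.2 CPM in the other cells. Fc receptors and their signalling chains summed to 5277.5 and 4662 CPM against 29.0 and 40.05 CPM. The rule genes Fcer1g (1869.6 and 1879.7 CPM) and Tyrobp are among them. This sum is therefore in part set by the choice of cells and is no support for a difference. C5ar1, the C5a receptor, was at 369 and 355 CPM against 0.0279 and 0.0939 CPM. C3 itself, the central component, was at 0.874 and 2.36 CPM, below the 4.72 and 3.24 CPM of the other cells. Fcgr3, an IgG receptor, was at 310.3 and 221 CPM, and Syk, the kinase beneath these receptors, at 142 and 102 CPM against 1.17 and 1.03 CPM. The Toll-like receptor list summed to 614.5 and 477 CPM against 79.7 and 74.3 CPM, with Tlr4 at 87.4 and 55.6 CPM, Tlr7 at 80.4 and 57.3 CPM and Tlr13 at 60.3 and 52.2 CPM, which sense lipopolysaccharide and microbial RNA.

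The lipid-associated list, which describes macrophages of fat-laden tissue, was led by the lysosomal protease gene Ctsd in WAT and by the galectin gene Lgals3 in BAT. In WAT 12 of 14 and in BAT 11 of 14 genes were over 2-fold higher, with sums of 32761 and 26626 CPM against 2824 and 3024 CPM. Trem2, the lipid receptor that controls this state, was at 641.5 and 532 CPM against 0.161 and 0.252 CPM. Gpnmb, a lysosomal glycoprotein, was at 3307 CPM (3202 to 3414) in WAT and 1972 CPM (1922 to 2023) in BAT, against 21.9 and 16.7 CPM. Lgals3, galectin-3, was found in every member, from 1485 to 22562 CPM in WAT and from 283 to 15202 CPM in BAT. Cd36, a fatty acid and oxidized lipoprotein receptor, was at 1119 and 632.5 CPM against 0.657 and 1.75 CPM, and Fabp5, a fatty acid carrier, at 4634 and 4451 CPM against 516 and 522 CPM. Lpl, the lipase of lipoprotein triglyceride, did not separate the populations, at 285 and 337 CPM against 387 and 357 CPM, and neither did Cd63, at 961 and 1017 CPM against 1103 and 1139 CPM.

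Spp1, osteopontin, was uneven between cells. It was found in 31 of 39 WAT members, from 0 to 11612 CPM with a median of 312, and in 71 of 98 BAT members, from 0 to 20094 CPM with a median of 210.4 CPM. The summed levels were 1630.1 CPM in WAT and 1114 CPM in BAT, against 52.6 and 77.9 CPM in the other cells. Gpnmb in contrast was found in 37 and 96 members, with medians of 2719 and 1923 CPM. At least 1 UMI of Spp1 was also found in 21.8% of the other WAT cells and 33.5% of the other BAT cells, at median depths close to those of the myeloid cells, so a myeloid cell with few Spp1 UMIs cannot be told apart from background. The ranges of the 2 cultures overlapped.

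**Figure D3:**
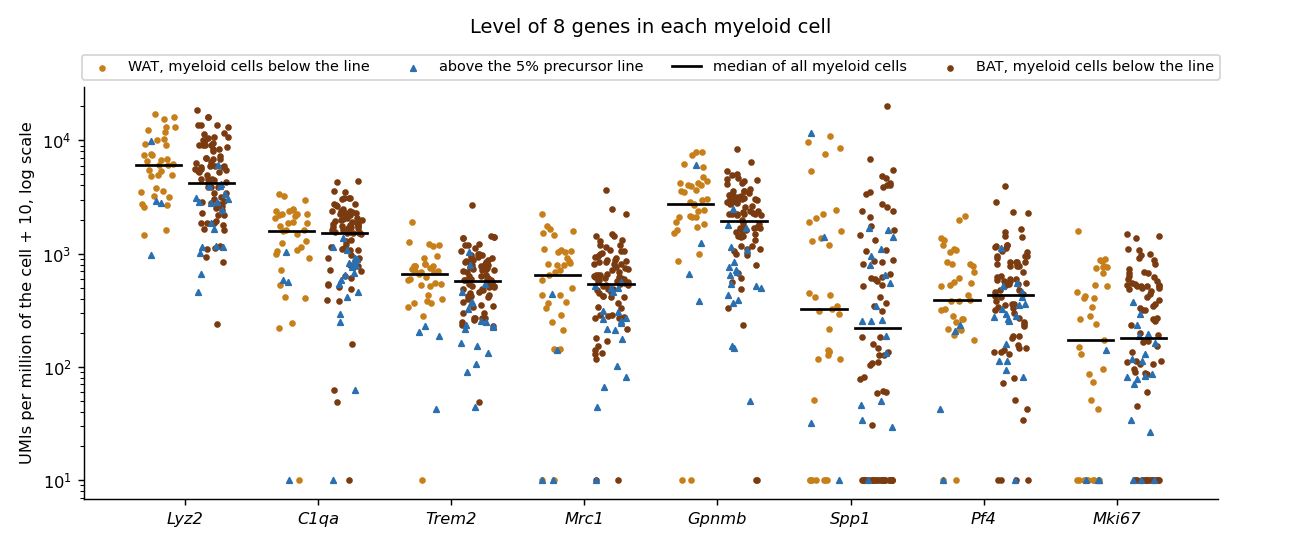
Level of 8 genes in each myeloid cell, as CPM of the cell plus 10 on a log scale, for WAT (left of each pair) and BAT (right); triangles are cells at or above the 5th percentile of precursor share and bars are medians of all myeloid cells. Lyz2 and Gpnmb are spread around high medians (6109.8 and 4162.5 CPM for Lyz2), whereas Spp1 and Mki67 reach from 0 to 20094 and 1575 CPM.

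Lysosomal genes and genes of iron handling were higher in the myeloid cells. Of 21 lysosomal genes tested, 18 in WAT and 17 in BAT were over 2-fold higher and 0 lower, with sums of 25070 and 21183 CPM against 4163 and 4418 CPM. The proteases Ctsd and Ctsb were at 6225 and 4689.6 CPM and at 4518 and 4065 CPM, and Lgmn, an endopeptidase, at 1108 and 950.0 CPM against 36.8 and 43.3 CPM. Npc2, which carries cholesterol out of lysosomes, was at 683.5 and 765 CPM against 415 and 506 CPM, under the 2-fold limit. Of 11 genes of lipid uptake and efflux, 8 and 7 were over 2-fold higher, including Msr1, a scavenger receptor, at 308.5 and 278 CPM against 0.0419 and 0.124 CPM.

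Of 8 iron genes tested, 8 of 8 were over 2-fold higher in each culture. Fth1 and Ftl1, the 2 chains of the iron store ferritin, were at 37263 and 27071 CPM in WAT and 30360.2 and 23555 CPM in BAT, against 2381, 3223, 2546 and 3359.7 CPM in the same order in the other cells. Fth1 ran from 5165 to 134756 CPM per cell in WAT and from 2831 to 94779 CPM in BAT. Tfrc, which takes up transferrin iron, was at 220.3 and 146 CPM, and Slc40a1, ferroportin, the iron exporter, at 83.0 and 106.5 CPM. Of scavenger and engulfment receptors, 5 of 8 were higher and 1 lower in each culture, the lower one being Axl at 18.4 and 32.7 CPM against 102 and 91.0 CPM (6.71 and 12.3 CPM in members under 0.1%), while the related receptor Mertk was at 94.4 and 71.1 CPM against 8.33 and 9.18 CPM.

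The myeloid cells carried chemokine transcripts with few of the classical inflammatory cytokines. Of 10 chemokines tested 9 were over 2-fold higher and 1 lower in each culture. Ccl2, which draws monocytes, was at 1556 and 1041 CPM against 219.5 and 186 CPM, Ccl7 at 610.1 and 461 CPM against 124 and 148 CPM, and Ccl9 at 544.5 and 382.5 CPM against 2.27 and 14.2 CPM. Ccl3 and Ccl4, the macrophage inflammatory proteins, were at 215 and 133 CPM and at 409 and 239.6 CPM, with 0.0699 and 0.138 CPM and 0.0838 and 0.0939 CPM in the other cells. Cxcl12, the lower gene, was at 42.0 and 58.0 CPM against 263 and 164 CPM, and at 8.94 and 6.15 CPM in members under 0.1% precursor transcripts. The chemokine receptor list summed to 83.9 and 88.6 CPM against 3.67 and 3.22 CPM, with Ccr1 at 27.1 and 37.7 CPM. Tnf was at 42.0 and 36.1 CPM in 19 and 58 members. Il1b and Il12b had 0 UMIs, as had Il6 in WAT and Nos2 in BAT, and the remaining genes of the inflammatory list, Ptgs2 and Cxcl10 among them, stayed below 50 CPM.

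When cells were drawn down to 5000 UMIs each, 12 of 37 WAT myeloid cells (32.4%, 18.0 to 49.8%) and 15 of 95 BAT myeloid cells (15.8%, 9.12 to 24.7%) had at least 5 UMIs over 2 or more inflammatory genes, against 0.0405% and 0.0443% of the other cells; in this draw 2 WAT and 3 BAT members were too shallow. Without the draw the values were 79.5% and 75.5%. Only Ccl3 and Ccl4, counted among the chemokines above, reached 50 CPM in this list. Ccl4 alone made up 409.1 of its 769.2 CPM in WAT and 239.6 of its 502.5 CPM in BAT. The shares thus rest largely on these chemokines. Of the thinned cells, 18.9% (7.96 to 35.2%) in WAT and 3.16% (0.656 to 8.95%) in BAT passed the interferon list, against 0.870% and 0.635% of the other cells. Without the draw 82.05% and 74.49% passed it, against 12.40% and 11.27% of the other cells. In the myeloid cells the interferon list summed to 520.9 and 411.8 CPM, of which Bst2 alone made up 384.6 and 319.8 CPM. The passing shares thus rest largely on Bst2 and are not a measure of the whole list. MHC class II genes, which present antigen, were nearly absent. H2-Aa and their activator Ciita had 0 UMIs, and the list summed to 20.1 and 21.2 CPM beside 12.0 and 12.0 CPM in the other cells. Without thinning, 0 of 39 and 1 of 98 cells passed the MHC class II list.

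Growth factor transcripts differed by gene. Of 8 tested, 4 were over 2-fold higher and 2 lower in each culture. Igf1 was at 683 CPM (636 to 732) in WAT and 412 CPM (389 to 436) in BAT myeloid cells, against 161 and 52.6 CPM, and Tgfb1 at 279.7 and 260.2 CPM against 32.7 and 36.5 CPM. Grn, progranulin, was at 1083 and 1069.6 CPM against 133 and 157.5 CPM. Vegfa, the vessel growth factor, was among the lower ones, at 8.74 and 20.2 CPM against 90.1 and 73.7 CPM, and at 1.12 and 1.23 CPM in members under 0.1% precursor transcripts.

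Transcripts of dividing cells were found more often in the myeloid cells. Mki67, the proliferation antigen Ki-67, was at 366 and 303 CPM against 125 and 98.9 CPM, and Pcna, the clamp of DNA replication, at 318 and 285 CPM against 77.2 and 77.2 CPM. Over the S and G2/M list, 4 of 14 tested genes in WAT were over 2-fold higher and 1 lower, the lower one being Cdc20, and 4 of 15 were higher and 0 lower in BAT, so most of the list was within 2-fold, beside 19.4% and 15.1% of all genes tested that were higher. At 5000 UMIs per cell, 24 of 37 WAT myeloid cells (64.9%, 47.5 to 79.8%) and 69 of 95 BAT myeloid cells (72.6%, 62.5 to 81.3%) passed the list, against 31.1% and 30.6% of the other cells, and unthinned 89.7% and 93.9% against 61.6% and 64.6%. In members under 0.1% precursor transcripts the thinned shares were 73.3% and 76.9%. The part of free RNA in these shares was not tested.

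**Figure D4:**
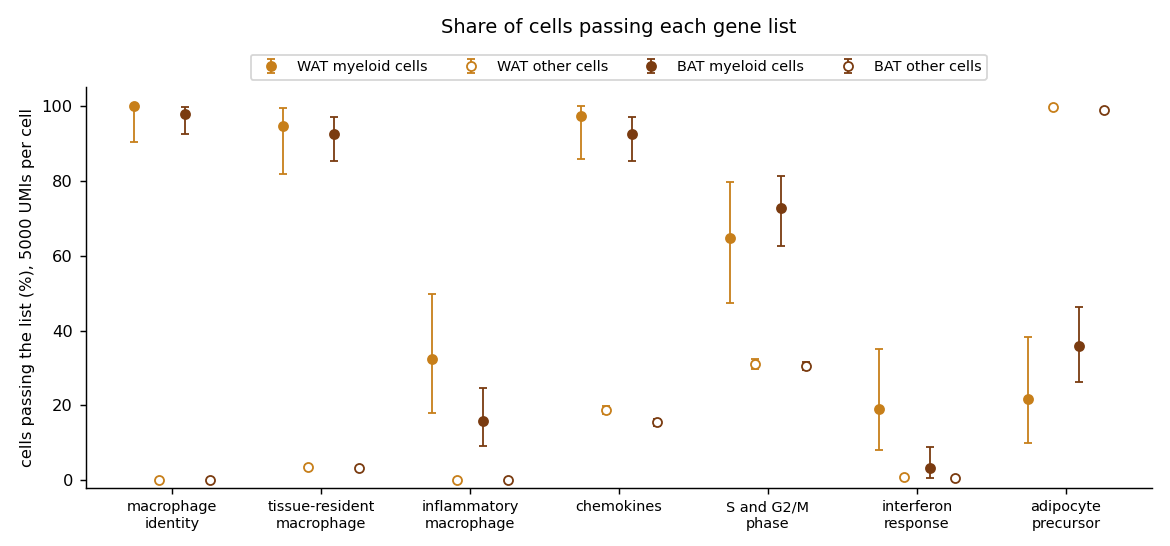
Percent of cells, thinned to 5000 UMIs each, that had at least 5 UMIs over a gene list with at least 2 of its genes found, for myeloid (filled) and other cells (open) of each culture; bars are exact 95% intervals for counting error only. The S and G2/M list was passed by 64.9% of WAT and 72.6% of BAT myeloid cells. The inflammatory list, in which only Ccl3 and Ccl4 reached 50 CPM, was passed by 32.4% and 15.8%.

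Among the myeloid cells themselves, the most variable genes by the ratio of variance to mean after thinning were Fth1, Spp1, Malat1 and Ftl1 in WAT (56.3, 30.6, 23.7 and 22.1), followed by Col1a1, Col1a2, Sparc, Lyz2, Col3a1 and Apoe. In BAT they were Actc1, Fth1, Spp1 and Ftl1 (61.0, 50.7, 30.2 and 28.3), followed by Ptn, Lyz2, Acta2, Malat1, Tmsb4x and Col1a2. The collagen genes, Sparc, Ptn and Acta2 were higher in the other cells than in the myeloid cells, and Actc1, cardiac actin, came from 5 BAT cells with up to 9655.5 CPM in 1 of them.

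Over thinned members below the 5th percentile of precursor share, 33 in WAT and 76 in BAT, Fth1 and Ftl1 had a Spearman correlation of 0.78 and 0.82 and C1qa and C1qb of 0.35 and 0.59. Spp1 was weakly related to Gpnmb (0.23 and 0.21) and Fth1 to Hmox1 in WAT (0.18) and more in BAT (0.51). Mki67 and Mrc1 gave 0.13 and -0.30. Further pairs were computed, and the 2 cultures were alike in some and not in others. Gpnmb gave 0.23 and 0.38 with Lgals3, 0.42 and 0.13 with Lyz2, and -0.33 and 0.19 with Mki67. The cells of each value share 1 library and its free RNA, and sparse counts lower such values, so they are given as a description.

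Between the depots, the number of genes that differed depended on how the cells were summed. Of 4029 genes with at least 50 CPM in either depot's myeloid cells, 2.68% were over 2-fold higher in BAT (108) and 1.22% over 2-fold lower (49), with a median log2 ratio of -0.05. With the cells thinned to 5000 UMIs each, the counts were 175 higher and 257 lower. These came from 1 random draw over 37 WAT and 95 BAT cells. The thinned profiles held far fewer UMIs, so a gene at 50 CPM carried more counting error. The part of that error in these counts was not tested. The BAT-higher genes included precursor genes. Of the 8 precursor genes at that level, 3 were over 2-fold higher in BAT, with a list median of 0.86. In the other cells these genes had a median of -0.13. The part of precursor transcripts in the remaining BAT-higher genes was not tested. Within the study's cell limits the list median was 0.091, and 26 genes in place of 108 were over 2-fold higher in BAT. Col1a1 was at 658 CPM in WAT and 1352 CPM in BAT myeloid cells, and Acta2, smooth muscle actin, at 357.5 and 1349 CPM. In members under 0.1% precursor transcripts the log2 ratio was 0.42 (0.06 to 0.79) for Col1a1 and 1.53 (1.20 to 1.88) for Acta2. Col1a1 is on the list by which these members were chosen, so its ratio there is bounded by that choice. In the 31 WAT and 68 BAT members under 0.1% precursor transcripts, a limit chosen after the values were seen, 24 genes were over 2-fold higher in BAT and 61 lower. That BAT set held the droplet with myogenic genes described above, and with at least 30 rule UMIs required as well, which left 30 WAT and 65 BAT members without it, 11 genes were higher and 58 lower.

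Apart from the osteoclast-like list described below, no macrophage list moved by 2-fold. The median log2 ratio of BAT over WAT was -0.19 for the identity list, -0.26 for the lipid-associated list, -0.22 for the lysosome, -0.45 for the chemokines and -0.73 for the inflammatory list, which had only Ccl3 and Ccl4 at 50 CPM. With members under 0.1% precursor transcripts the first 4 medians were 0.07, -0.04, 0.06 and -0.18. Single chemokines went both ways in those members. Log2 ratios were -0.40 (-0.65 to -0.15) for Ccl3, -0.60 (-0.79 to -0.42) for Ccl4 and -0.47 (-0.56 to -0.37) for Ccl2, but 0.59 (0.33 to 0.85) for Ccl12, 0.64 (0.36 to 0.92) for Cxcl16 and 0.13 (-0.01 to 0.27) for Pf4. C1qa, for example, was at 1709 CPM in WAT and 1769 CPM in BAT in those members, a log2 ratio of 0.05 (-0.04 to 0.14). Myog, a muscle regulator, was found in 3 BAT members and 0 WAT members, with 1 cell at 6488.5 CPM.

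The genes higher in BAT were named for their ratio over all members, so their ratios in members under 0.1% are a description of a part of the same cells. They included the oxidative stress gene Hmox1, heme oxygenase, which frees iron from heme. It was at 263 CPM (234 to 295) in WAT and 471.5 CPM (447 to 497) in BAT myeloid cells, a log2 ratio of 0.84 (0.66 to 1.03), and per cell it ran from 0 to 1123 CPM with a median of 222.5 in WAT and from 0 to 4231 CPM with a median of 292 in BAT. The 2 cultures overlapped, and the highest BAT cell lay above the highest WAT cell. In members under 0.1% precursor transcripts the ratio was 1.20 (1.01 to 1.40), and in the other cells of the cultures it was 0.34. Gclm, the modifier subunit of the enzyme that starts glutathione synthesis, was at 131 and 177 CPM, a ratio of 0.44 (0.17 to 0.71), and 1.01 (0.71 to 1.33) in members under 0.1%, where the other cells had -0.17. Akr1b8, an aldo-keto reductase, had 0.63 and 1.03. Slc40a1, the exporter of the iron list and not among the named genes, had 0.36 and 0.81. Iron genes went both ways in members under 0.1%, where Tfrc had -0.28 and Fth1 -0.04.

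Among genes at 50 CPM or more in BAT myeloid cells, at least 2 times as high as in the other cells and found in 25% of members, Gngt2, a G protein gamma subunit, had the largest ratio in that direction, at 23.6 CPM in WAT and 50.6 CPM in BAT (1.10, 0.50 to 1.75), in 21 of 39 and 66 of 98 members. Cd72, an inhibitory lectin receptor, had a ratio of 0.79 (0.26 to 1.35), Lst1, a regulator of leukocyte shape, 0.63, Fcrls, an Fc receptor-like scavenger receptor, 0.56, Aif1, the actin-binding protein IBA1, 0.56 (0.18 to 0.95), Gdf15, a stress cytokine, 0.52, and the kinase Prkcd 0.49. Aif1 was found in 26 WAT and 82 BAT members, at medians of 32.9 and 85.2 CPM.

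Higher in WAT was first Atp6v0d2, the subunit of the lysosomal proton pump found in macrophages and osteoclasts. It was at 66.4 CPM (52.3 to 83.1) in WAT and 12.1 CPM (8.50 to 16.8) in BAT, a log2 ratio of -2.45 (-3.07 to -1.86). It was found in 10 of 39 and 18 of 98 members, with a median of 0 in both and a highest cell at 689 CPM in WAT and 321 CPM in BAT, so the difference came from a minority of cells whose ranges overlapped. The other osteoclast genes differed among themselves. Ctsk, the bone-resorbing protease cathepsin K, was at 70.8 CPM in WAT and 45.5 CPM in BAT, beside 72.1 and 86.8 CPM in the other cells, and at 7.82 and 27.7 CPM in members under 0.1% precursor transcripts. Itgb3, an integrin chain, was at 6.99 and 4.38 CPM and Acp5, an acid phosphatase, at 14.0 and 14.5 CPM, while Dcstamp, Calcr and Oscar had 0 UMIs in both. The list summed to 187 and 103 CPM, and its median log2 ratio was -1.49 over the 2 genes at 50 CPM.

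Hdac9, a histone deacetylase, was at 340.0 CPM in WAT and 128 CPM in BAT, a ratio of -1.41 (-1.62 to -1.20), in 34 of 39 and 70 of 98 members. Its median cell was at 255.5 CPM in WAT and 92.3 CPM in BAT, and the ranges overlapped from 0 to 792 CPM. Il7r was at 113 and 46.5 CPM (-1.28, -1.64 to -0.92) and Atf3, a stress-induced transcription factor, at 132 and 55.9 CPM (-1.24, -1.57 to -0.91). Fat3, a cadherin, had -2.09, Rasgrp3, a Ras activator, -1.88, the unannotated transcript 5033421B08Rik -1.28, Wdr91, an endosome regulator, -1.21, and Ttc7b, part of a lipid kinase complex, -1.20. In members under 0.1% precursor transcripts these ratios ran from -0.78 for Atf3 to -2.36 for Atp6v0d2; the genes were picked for this direction in a set of cells that includes these.

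**Figure D5:**
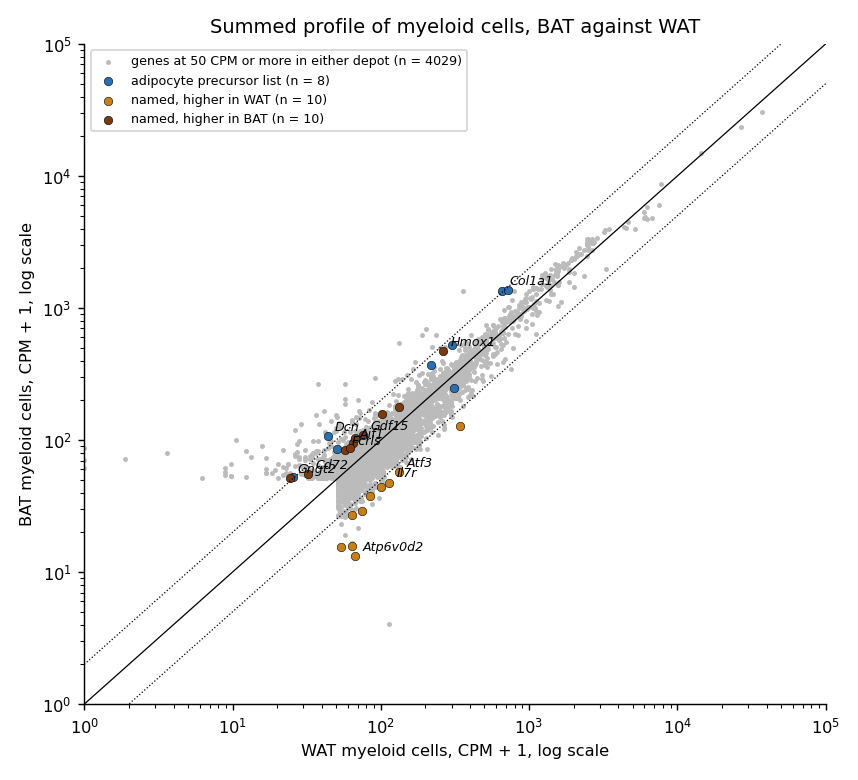
Each point is a gene, with its CPM plus 1 in WAT myeloid cells on the x axis and in BAT myeloid cells on the y axis, both on log scales, for 4029 genes at 50 CPM or more in either; solid and dotted lines mark equality and 2-fold. Most genes lie along the diagonal, precursor genes such as Col1a1 (658 and 1352 CPM) lie above it, and Atp6v0d2 (66.4 and 12.1 CPM) lies farthest below among the named genes.

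The position genes that tell the depots apart in progenitors were scarce in the myeloid cells. Hoxc10, which marks the posterior white depot, was found in 3 of 39 WAT and 0 of 98 BAT members, at 7.87 CPM in WAT against 91.0 CPM in the other WAT cells. Zic1, which marks the brown depot, was found in 0 WAT and 15 BAT members, at 7.08 CPM in BAT against 26.0 CPM in the other BAT cells. Tbx15 was at 16.6 and 38.4 CPM against 177 and 122 CPM. These levels went with the precursor transcripts: in members under 0.1%, Hoxc10 was at 1.12 CPM in WAT, Zic1 at 1.23 CPM in BAT and Tbx15 at 3.35 and 2.46 CPM.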

How the data were processed

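Single cells of 1 WAT and 1 BAT culture were sequenced with 10x Genomics 3′ chemistry. Per the file headers and the study's methods, the authors aligned reads to mm10 and made the deposited UMI counts per gene and cell with Cell Ranger 7.0.1, including its cell calls, without normalization. No doublets or free RNA were removed here. The members and gene lists were chosen with earlier results of these data known.

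UMIs were summed over cells and scaled to counts per 1000000 (CPM). Genes reaching 50 CPM in 1 of the profiles were compared, and a ratio over 2 after adding 1 CPM was counted. Printed ratios of single genes carry no added CPM, and those of lists do. Cells were thinned to 5000 UMIs where shares passing a list were compared, apart from MHC class II. The MHC class II counts, sex calls, counts of Xist with Y-linked transcripts, and values called unthinned or without the draw used all UMIs. A list was passed with at least 5 UMIs over 2 genes. Intervals are exact Poisson, Clopper-Pearson or conditional binomial at 95%, and 0 counts allow up to 3. Named genes were those of the lists, the 12 highest over other cells, the 10 with the largest depot ratio each way (at least 50 CPM, 2 times the other cells, found in 25% of members) and the 10 most variable; a few genes that this rule names are not reported here. Gene positions come from the GRCm38 annotation and promoter windows from RefSeq. Alternatives were other marker, gene and level limits, the study's cell limits, subsets of members, thinning, mean CPM per cell and a pseudocount of 10 CPM. The procedures ran in Python 3.11.15 (pandas 2.3.3, numpy 2.4.6, matplotlib 3.10.9, scipy 1.17.1) and were tested on simulated data.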

Additional observations from a re-analysis of the deposited data

Results flagged for a closer look

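Pdgfc, a platelet-derived growth factor ligand, lay on opposite sides in the 2 cultures. Its log2 ratio of myeloid over other cells was 0.37 in WAT (77.8 against 60.4 CPM) and -0.38 in BAT (39.1 against 50.8 CPM), and the difference was not tested. Cells under 1000 genes were left out of the comparisons, and of these 5 of 116 BAT cells (4.31%) passed the marker part of the rule. In WAT 2 of 158 did.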

How the results depend on the processing

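No paired analysis was possible because each depot has 1 library and the labels carry no replicate numbers. Of 220 summary values recomputed under another setting, 165 stayed within their limits and 51 went outside them. The other 4 changed sign where the limits of the reported value lay off 0. The limits were counting intervals for shares and single genes, and a fixed fold range for counts of genes. For a list median they were the medians of its genes' lower and upper limits, which is not an interval for the median itself. Of the values of the named genes reported here, 106 stayed within and 27 went outside. The share of myeloid cells and its ratio between depots stayed within their counting intervals under each alternative run.

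A level limit of 10 or 100 CPM gave 1680 and 522 genes over 2-fold higher in WAT myeloid cells (899 at 50 CPM) and 1300 and 346 in BAT (647). It gave 468 and 43 genes higher in BAT than WAT (108) and 202 and 17 lower (49), and at 10 CPM the chemokine median was -0.23. Members under 0.1% precursor share, an alternative chosen after seeing the data, gave 979 genes higher in BAT myeloid cells and 24 higher in BAT than WAT, or 11 with at least 30 marker UMIs as well. Genes higher in BAT than WAT numbered 26 within the study's limits, 59 at up to 60000 UMIs, 56 below the 5th percentile of precursor share, 58 by mean CPM per cell and 175 after thinning, which also gave 257 lower. The thinned counts carry more counting error, as stated above.

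The BAT over WAT median of the identity list, -0.19, became 0.0018 within the study's limits, 0.0039 below the 5th percentile and 0.074 under 0.1% precursor share. Within the study's limits the lipid-associated median was -0.11, the precursor median 0.091, that of transcription factors 0.018, of the lysosome -0.081 and of S and G2/M 0.35. Below the 5th percentile the lipid-associated median was -0.11, the complement median 0.014 and the lysosome median -0.059. Under 0.1% the medians were -0.036 for lipid-associated genes, 0.10 for complement, -0.17 for Fc receptors, -0.11 for Toll-like receptors, -0.18 for chemokines, 0.057 for the lysosome and 0.43 for iron genes. By mean CPM per cell they were -0.090 for lipid-associated genes, 0.53 for precursor genes, 0.043 for complement, -0.23 for chemokines and -0.092 for the lysosome. After thinning they were 0.50 for precursor genes, -0.073 for chemokines and 0.32 for S and G2/M. In all, 9 list medians took another sign: the 4 counted above, of the identity and lysosome lists, and 5 of the complement list (-0.14 as reported) and of transcription factors (-0.22 as reported, 0.0035 under 0.1%), whose limits, as defined above, held 0. The precursor median was 0.50 at up to 60000 UMIs and 1.27 with at least 30 marker UMIs, also chosen after seeing the data.

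The precursor share of UMIs was 0.266% in WAT and 0.364% in BAT at up to 60000 UMIs, 0.220% in BAT within the study's limits, and 0.0327% and 0.0520% as medians over cells. Unthinned, 89.7% and 93.9% passed the S and G2/M list and 79.5% and 75.5% the inflammatory list. The causes of these changes were not tested. With 39 and 98 cells and 1 library each, precision is limited by counting error and the spread between cultures is unknown.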
